A study of Mus musculus with 22 samples.

Results

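The comparison described here sets type 2 conventional dendritic cells that lack the transcription factor T-bet (T-bet- cDC2s) against type 1 conventional dendritic cells (cDC1s) of the mouse spleen, by bulk RNA-seq across all genes. It was chosen by the library labels, which give 3 libraries of each subset, 6 of the 22 libraries of the study. All mice, in both groups, were homozygous for the Tbx21RFP-cre allele, a knock-in at the T-bet gene that makes red fluorescent protein (RFP) and Cre where Tbx21 is transcribed, and the animals were males and females of 6 to 10 weeks, for which no treatment is named. Cells were sorted as negative for CD3, CD90, CD64 and Ly6C, among other markers, and positive for CD11c and MHC class II, then as CD11b+ XCR1- RFP- for T-bet- cDC2s and as CD11b- XCR1+ for cDC1s. Cells of a pair of mice were pooled for each library, so a library is not a single animal. In total 34047 genes were listed, of which 14377 had enough counts to be tested.

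Conventional dendritic cells take up antigen, carry it to T cells and present it. cDC1s depend on the transcription factors IRF8 and BATF3, recognise dead cells and double-stranded RNA, and are known for cross-presentation of captured antigen on MHC class I to CD8 T cells. cDC2s depend more on IRF4, carry many C-type lectins and SIRPα, and are known for presentation on MHC class II to CD4 T cells. In the study, cDC2s were split by T-bet, the T-box factor best known from type 1 helper T cells and NK cells, and both branches were compared with cDC1s.

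Each of the 6 libraries held 20993220 to 27317480 counts over all genes. All 9 spleen libraries, the 3 of T-bet+ cDC2s included, entered one edgeR fit, and a gene was called at a Benjamini-Hochberg adjusted p under 0.05 in its quasi-likelihood test. Values below are normalised counts, that is counts scaled to the mean library size, listed for libraries 1, 2 and 3 in turn. Log2 fold changes are T-bet- cDC2s over cDC1s ± SE (n = 3 libraries per group). The SE was derived as the absolute log2 fold change divided by the square root of the F value of its test. It therefore rests on the spread over all libraries of a fit, not on the 2 groups alone. In bulk RNA, fewer cells that express a gene and less of its RNA per cell cannot be told apart. The 6 libraries also fell into 2 classes, by how their counts followed the GC content of the most GC-rich 100 bases of each transcript. T-bet- cDC2 library 3 and cDC1 libraries 1 and 2 were in the higher class (Spearman's rho over genes 0.25 to 0.33). T-bet- libraries 1 and 2 and cDC1 library 3 were in the lower (-0.46 to -0.30). The GC content of whole transcripts did not split them this way, with rho 0.19 in T-bet- library 2 and -0.13 in cDC1 library 2. Genes that follow this class are named where they occur. All 2279 called genes had the same direction within each class. For the 2250 of them whose groups did not overlap, this is fixed by the lack of overlap.

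Of the 14377 genes tested, 1388 were higher in T-bet- cDC2s (9.65%) and 891 higher in cDC1s (6.20%), together 15.9%. More than 4-fold differences were found for 828 of the former and 404 of the latter. The 3 T-bet- libraries lay above the 3 cDC1 libraries for 2449 genes (17.0%) and below them for 1833 (12.7%), whether called or not. Of the called genes 2250 did not overlap between the groups and 29 did. The median log2 fold change of all genes tested was -0.01. Leaving out T-bet- library 3 raised the genes higher in cDC1s to 1573, and leaving out cDC1 library 2 lowered them to 535, while the other single libraries moved either count by less than 1.5 times.

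**Figure D1:**
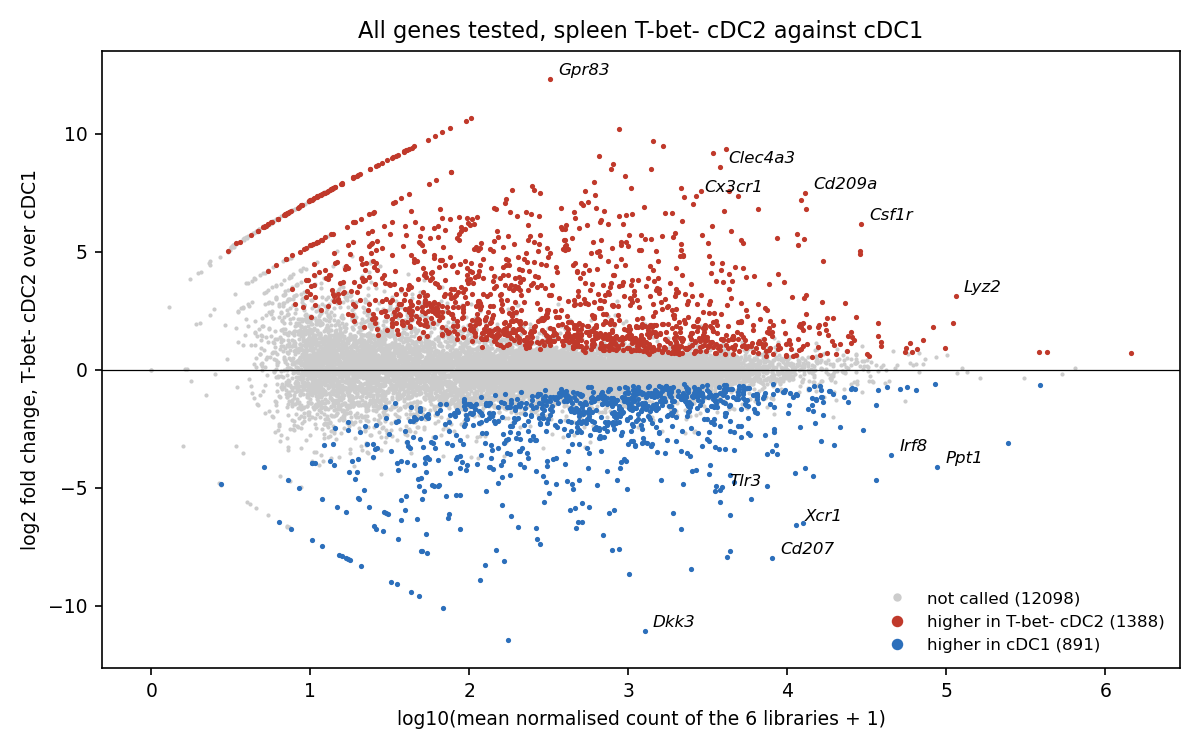
Each point is one of the 14377 genes tested in the spleen, with the log10 of its mean normalised count (plus 1) over the 6 libraries on the horizontal axis and its log2 fold change, T-bet- cDC2 over cDC1, on the vertical axis. Red marks the 1388 genes higher in T-bet- cDC2s, blue the 891 higher in cDC1s and grey the rest, and the straight rows of points at the left and outer edges are genes with no or few counts in one group, whose fitted value depends on the prior count.

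The genes of the sort gates are given first, as a check of the labels and not as a finding. Xcr1, the receptor for the chemokine XCL1 used to gate cDC1s (chr9:123852315-123862029, GRCm38, reverse strand), had 302, 168 and 242 in T-bet- cDC2s and 18966, 20855 and 27505 in cDC1s. Itgam, which encodes CD11b (chr7:128062640-128118491, forward strand), had 2441, 1493 and 1534 against 24.8, 13.6 and 36.6. The libraries of each group stood apart for both genes, in the direction of the gate. Tbx21, which encodes T-bet, had 6.81, 36.5 and 56.0 against 21, 29.1 and 3.43 and was not called (0.88 ± 0.75, adjusted p = 0.49), and the T-bet+ cDC2 libraries held 545, 587 and 407. Among other gated genes, Ly6c2 of the Ly6C antigen had 95.4, 46.2 and 47.1 against 121, 82.3 and 133, and Fcgr1, which encodes CD64, had 185, 187 and 126 in T-bet- cDC2s and 0, 0.969 and 10.3 in cDC1s.

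Markers outside the gates also separated the subsets. Csf1r, the receptor for the macrophage growth factor CSF1 and IL-34, had 71812, 44474 and 56952 in T-bet- cDC2s and 644, 799 and 985 in cDC1s, a log2 fold change of 6.16 ± 0.28 (adjusted p = 3.23e-06). Cx3cr1, the fractalkine receptor (chr9:119901616-120069879, reverse strand), had 6099, 3772 and 6117 against 30.5, 25.2 and 41.2 (7.37 ± 0.57, adjusted p = 2.84e-05). The lowest T-bet- library was far above the highest cDC1 library for both. Tlr3, the endosomal receptor for double-stranded RNA (chr8:45395665-45411080, reverse strand), had 257, 212 and 175 in T-bet- cDC2s and 4200.1, 7458 and 10496 in cDC1s (-5.11 ± 0.38, adjusted p = 2.5e-05). In T-bet+ cDC2s, which share the cDC1 libraries as their comparison, Csf1r had 6216, 4865 and 5609, Cx3cr1 197, 57.6 and 197 and Tlr3 52.3, 74.4 and 60.0. Csf1r and Cx3cr1 were thus lower in all T-bet+ libraries than in all T-bet- libraries, with Csf1r still above cDC1s. Most called genes were otherwise placed. On a log2 scale the T-bet+ mean lay closer to T-bet- cDC2s than to cDC1s for 1036 of the 1388 genes higher in T-bet- cDC2s (74.6%). The same held for 693 of the 891 higher in cDC1s (77.8%).

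**Figure D2:**
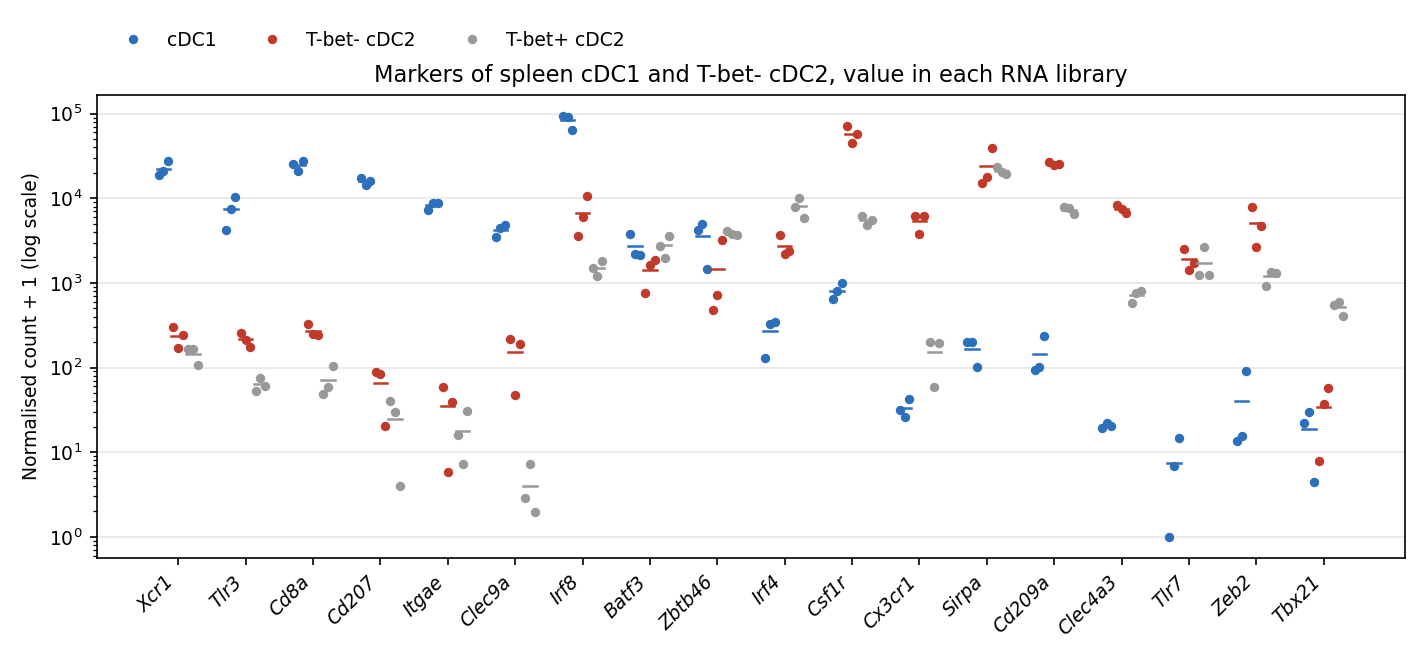
Normalised counts plus 1, on a log axis, of 18 marker genes in each spleen library: points are single libraries and short lines the group means (blue cDC1, red T-bet- cDC2, grey T-bet+ cDC2, 3 libraries each). From Xcr1 to Irf8 all cDC1 libraries lie above all T-bet- libraries, Batf3 and Zbtb46 lie closer together, and from Irf4 to Zeb2 the order is turned.

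The largest differences in favour of cDC1s were taken among called genes without overlap and with a mean of at least 50 normalised counts. These genes included several with next to no counts in T-bet- cDC2s. Dkk3, a secreted protein of the Dickkopf family, had 2092, 2376 and 3129.9 in cDC1s and no more than 3 counts in each T-bet- library, at least 782-fold higher when every T-bet- library is set at a floor of 3 counts. P3h2, a collagen prolyl hydroxylase, had 452, 367 and 218 against 0 in all T-bet- libraries, at least 107-fold higher. Naalad2, Cyp8b1, Adgrf5 and Efcc1 and the unnamed transcript RP23-379L17.3 were likewise at the floor in T-bet- cDC2s, with bounds of 32.6-fold to 101-fold. Of these, Cyp8b1 encodes the sterol 12α-hydroxylase of bile acid synthesis and Adgrf5 an adhesion G protein-coupled receptor.

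Surface proteins were among the rest. Cd207, which encodes the lectin langerin, had 17239.7, 14489 and 16151 in cDC1s and 88.6, 83.9 and 19.6 in T-bet- cDC2s (-7.97 ± 0.86, adjusted p = 0.000218). Itgae, the CD103 integrin chain that binds E-cadherin, had 7255, 8716 and 8902 against 57.9, 4.86 and 38.2 (-7.93 ± 0.83, adjusted p = 0.000181). Neither gene overlapped between the groups, which the choice of genes required. Ptgis, the prostacyclin synthase, had 2432, 1785 and 1839.5 in cDC1s and 0, 0 and 13.3 in T-bet- cDC2s. The rest of the 15 were Ttc39a, RP23-182K18.1, Mab21l3, Arhgap42 and Gramd2, with log2 fold changes from -8.44 to -7.61.

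In favour of T-bet- cDC2s, Gpr83, a G protein-coupled receptor, had 597, 766 and 557 against 0 in all cDC1 libraries, at least 209-fold higher. S1pr5, a sphingosine-1-phosphate receptor, was also at 0 in cDC1s, but its 43.1, 53.5 and 508 in T-bet- cDC2s rested mainly on library 3. Sirpb1c, a signal-regulatory protein of the activating kind, had 2077, 1733 and 1390.5 against 0.953, 0 and 3.43, at least 565-fold higher. Clec4g, AC087183.3, Cyp2ab1, Vnn3 and Zfp658 had no counts in any cDC1 library, with bounds of 35.0-fold to 65.7-fold over these and S1pr5. The others had counts in at least one cDC1 library. Clec4a3, a C-type lectin-like receptor of the dendritic cell immunoreceptor cluster, had 8389, 7386 and 6794 against 18.1, 21.3 and 19.4 (8.57 ± 0.28, adjusted p = 9.54e-07), and its neighbour Clec4a1 had 4521, 3213 and 2149 against 2.86, 3.87 and 6.86. Pltp, the phospholipid transfer protein, had 6773, 8728 and 4839.9 against 10.5, 7.75 and 17.2 (9.17 ± 0.41, adjusted p = 3.22e-06). Mgl2, a galactose-binding lectin, Tarm1, a T cell-interacting myeloid receptor, Sirpb1a and RP24-150C17.2 completed the 15, with log2 fold changes from 8.71 to 9.69. Clec4a1, Clec4a3, Sirpb1a and Sirpb1c belong to families of near-identical genes, between which reads may be split unevenly.

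Chromatin at these genes was read from ATAC-seq, which marks open DNA by where a transposase can cut it, in 2 spleen libraries of each subset. Of 166547 windows of 150 bases, each centred on a peak summit, 12191 (7.32%) were called as more open in T-bet- cDC2s and 17582 (10.6%) as more open in cDC1s, with limits of 0.01 on the adjusted p and 0.5 on the size of the log2 fold change. Of the 1035 genes called as higher in T-bet- cDC2s in RNA that had a window in the gene or up to 2000 bases before it, 59.0% held one more accessible in T-bet- cDC2s and 26.4% one more accessible in cDC1s. Of the 685 genes higher in cDC1s in RNA, 64.4% held a window more accessible in cDC1s and 27.3% one more accessible in T-bet- cDC2s. Among the 7632 genes not called, 32.4% held a window more open in T-bet- cDC2s and 35.8% one more open in cDC1s. The median number of windows was 7 for genes called in either direction and 6 for the rest, and a gene with more windows has more chances to hold a called one.

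For single markers, windows were counted within the RefSeq limits of the gene and the 2000 bases before it. At Tlr3, 7 of 8 windows were more accessible in cDC1s and none in T-bet- cDC2s. The window at the gene start (30 bases inside it) had 28.2 and 24.1 normalised reads in the T-bet- libraries and 165 and 169 in the cDC1 libraries (-2.68 ± 0.28, adjusted p = 3.59e-12). At Xcr1, 1 of 8 windows was called, 1363 bases before the start, with 55.4 and 58.8 against 92.0 and 140.3 (-1.02 ± 0.27, adjusted p = 0.00266). The other Xcr1 windows were not called, with all 8 values between -1.20 and -0.20. Csf1r had windows in both directions, 2 of 11 being more open in T-bet- cDC2s and 1 in cDC1s. At Cx3cr1, 2 of 5 windows were more open in T-bet- cDC2s, none more open in cDC1s, and the strongest, in the last exon, had 103 and 109 against 2.09 and 6.9 (4.55 ± 0.44, adjusted p = 1.72e-13). GENCODE also lists a far longer Cx3cr1 transcript, over which 9 of 42 windows were more open in T-bet- cDC2s, the pair above included, and 3 in cDC1s. The 7 further ones more open in T-bet- cDC2s lay 23167 to 124491 bases along it, with log2 fold changes from 0.85 to 3.07, and the 3 more open in cDC1s 165661 to 165856 bases along it, one of them over a coding exon of Wdr48.

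**Figure D3:**
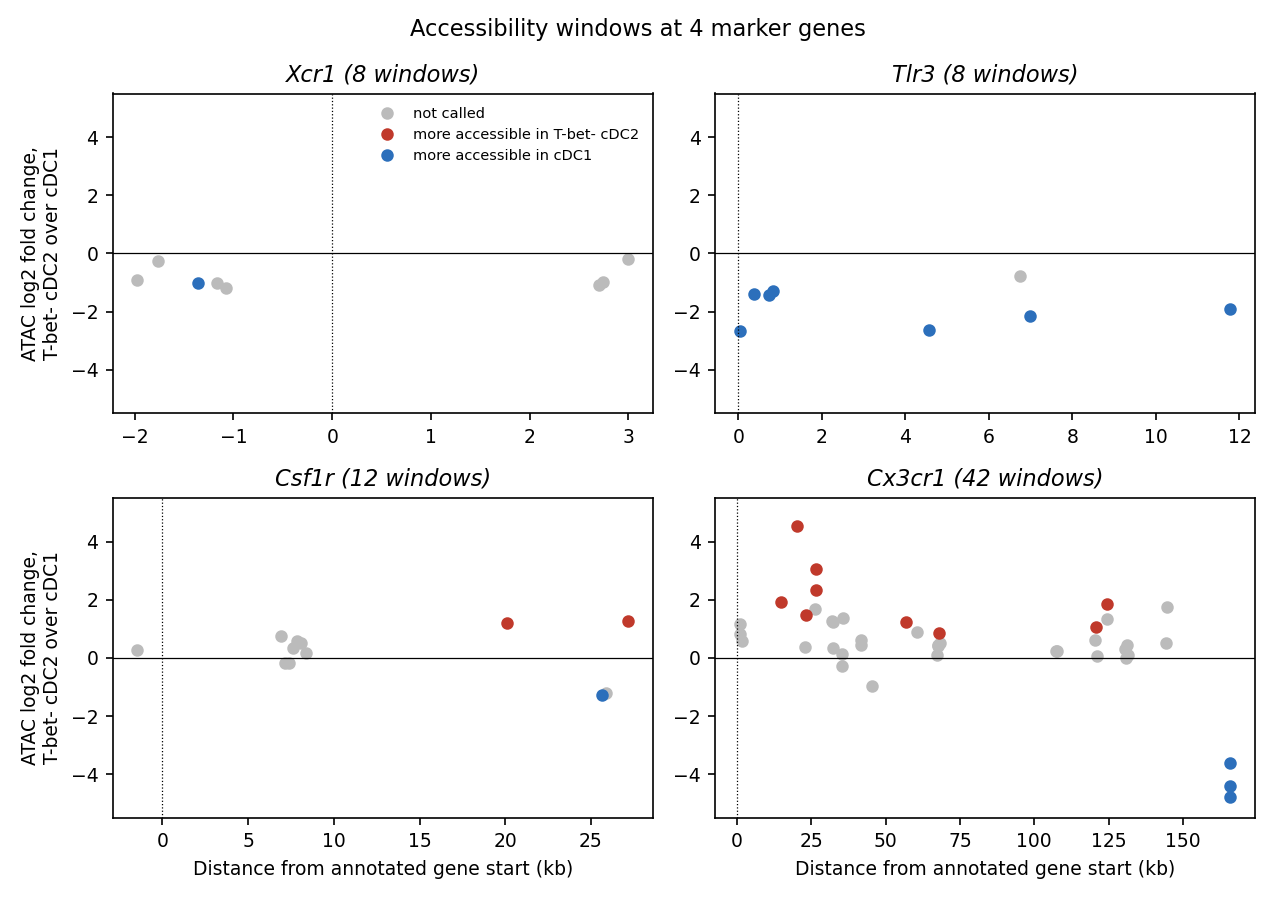
Accessibility windows at Xcr1, Tlr3, Csf1r and Cx3cr1: distance from the annotated gene start in kilobases (horizontal, in the direction of transcription) against the ATAC-seq log2 fold change, T-bet- cDC2 over cDC1 (vertical). Red marks windows called as more open in T-bet- cDC2s and blue those more open in cDC1s; all 7 called windows of Tlr3 lie below 0, and the Cx3cr1 panel spans a long GENCODE transcript, so that its blue windows at the far end lie outside the RefSeq limits of the gene.

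Of the marker and gate genes and those with the largest RNA differences, 13 higher in T-bet- cDC2s and 15 higher in cDC1s had windows within their GENCODE limits or the 2000 bases before. A window more accessible in T-bet- cDC2s was present at 10 of the 13 and at none of the 15, and one more accessible in cDC1s at 10 of the 15 and at 5 of the 13. Among genes not called in RNA the shares with such windows were the 32.4% and 35.8% given above, at a median of 6 windows, whereas these genes had 1 to 42 windows each, so that the counts and shares are not on an equal number of windows. The sequences of a called window each are given for Xcr1 and Tlr3 (receptors of cDC1s), Dkk3 (the largest bound), Cx3cr1 and Cyp2ab1, from RefSeq GRCm38.p6, forward strand, 5′ to 3′. Each was chosen among windows that differed in the same direction as the RNA, so their shared direction is by choice. Capitals mark matches, on either strand, to TGANTCA (AP-1), GAAANNGAA (IRF), GAGGAAG (PU.1) or TTGCNNAA (C/EBP).
Xcr1, chr9:123863318-123863467, before the gene: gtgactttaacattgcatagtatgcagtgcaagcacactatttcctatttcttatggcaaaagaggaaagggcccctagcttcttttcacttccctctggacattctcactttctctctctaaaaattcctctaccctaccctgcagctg
Tlr3, chr8:45406435-45406584, intron: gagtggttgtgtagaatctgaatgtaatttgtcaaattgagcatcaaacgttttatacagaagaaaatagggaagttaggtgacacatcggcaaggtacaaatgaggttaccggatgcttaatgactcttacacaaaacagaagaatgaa
Dkk3, chr7:112123889-112124038, intron: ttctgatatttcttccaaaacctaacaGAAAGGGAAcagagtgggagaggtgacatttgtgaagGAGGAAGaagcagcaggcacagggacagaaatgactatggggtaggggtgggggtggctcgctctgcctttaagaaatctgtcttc
Cx3cr1, chr9:120054956-120055105, intron: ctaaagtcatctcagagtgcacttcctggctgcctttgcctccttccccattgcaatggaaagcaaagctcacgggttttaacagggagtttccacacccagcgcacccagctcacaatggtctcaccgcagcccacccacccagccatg
Cyp2ab1, chr16:20324056-20324205, near a transcript start: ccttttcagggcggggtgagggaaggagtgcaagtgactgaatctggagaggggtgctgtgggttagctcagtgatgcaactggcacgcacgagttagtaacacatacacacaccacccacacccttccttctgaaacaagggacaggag
Of these, only the Dkk3 window held any of the 4 motifs, one for IRF and one for PU.1, which do not overlap. It had 8.68 and 7.13 normalised reads in T-bet- cDC2s and 132 and 105 in cDC1s. The Cx3cr1 window had 188 and 237 in T-bet- cDC2s, 41.8 and 71.3 in cDC1s and 312 and 221 in T-bet+ cDC2s. That window was thus open in both cDC2 subsets, unlike the RNA, which was low in T-bet+ cDC2s. Over all windows tested, AP-1 matches were present in 8.16%, IRF in 5.70%, PU.1 in 13.7% and C/EBP in 5.89%. In the windows more open in T-bet- cDC2s, shares were 16.3%, 4.69%, 18.5% and 10.4%, and among those more accessible in cDC1s 11.3%, 11.3%, 19.5% and 5.21%. IRF matches had the larger share in cDC1 windows and AP-1 and C/EBP matches in T-bet- cDC2 windows.

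Genes were next grouped by lists of known function, and counts are over the members with enough reads to be tested. The lists and their members were chosen with earlier results of these data known. Their counts therefore describe the lists and are no independent support. Over all genes tested, 9.65% were higher in T-bet- cDC2s and 6.20% in cDC1s, and some list counts below lay near or under these shares. The share higher in cDC1s was 1.82% for monocyte and macrophage genes, 3.85% for other innate sensors and 4.35% for class II genes. Of 25 genes of cDC1 identity, all tested, 21 were higher in cDC1s and none in T-bet- cDC2s, with a median log2 fold change of -3.63. Besides Itgae, the gate gene Xcr1 and Tlr3, these were led by Cd8a, the CD8α chain carried by spleen cDC1s (25222, 21285 and 27596 in cDC1s and 325, 247 and 242 in T-bet- cDC2s, -6.51 ± 0.35, adjusted p = 4.99e-06), by Gcsam, a signalling adaptor of germinal centre cells (-6.16 ± 0.52), and by Snx22, a sorting nexin (-4.97 ± 0.42). Clec9a, the receptor for actin of dead cells, had 3490.1, 4431 and 4840.2 against 217, 46.2 and 187 (-4.82 ± 0.60, adjusted p = 0.00058). The other 4 members were not called. Batf3 had 3793, 2212 and 2140.4 in cDC1s and 769, 1623 and 1854 in T-bet- cDC2s (-0.94 ± 0.38, adjusted p = 0.137), Kit, the stem cell factor receptor, had 5466, 12143 and 15723 and 15496, 7287 and 11221, and Flt3, the receptor for the growth factor of all dendritic cells, had 16197, 16851 and 9289 and 3563, 5532 and 11711. Zbtb46, a repressor common to cDCs, had 4233, 5036 and 1475 against 475, 724 and 3196, with overlapping groups in which the higher-class libraries held the larger values. With library class as a term Zbtb46 (-0.91, adjusted p = 0.0199) and Flt3 (-0.76, adjusted p = 0.0255) were called as higher in cDC1s, as they were without T-bet- library 3, and Batf3 was not called (adjusted p = 0.159).

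**Figure D4:**
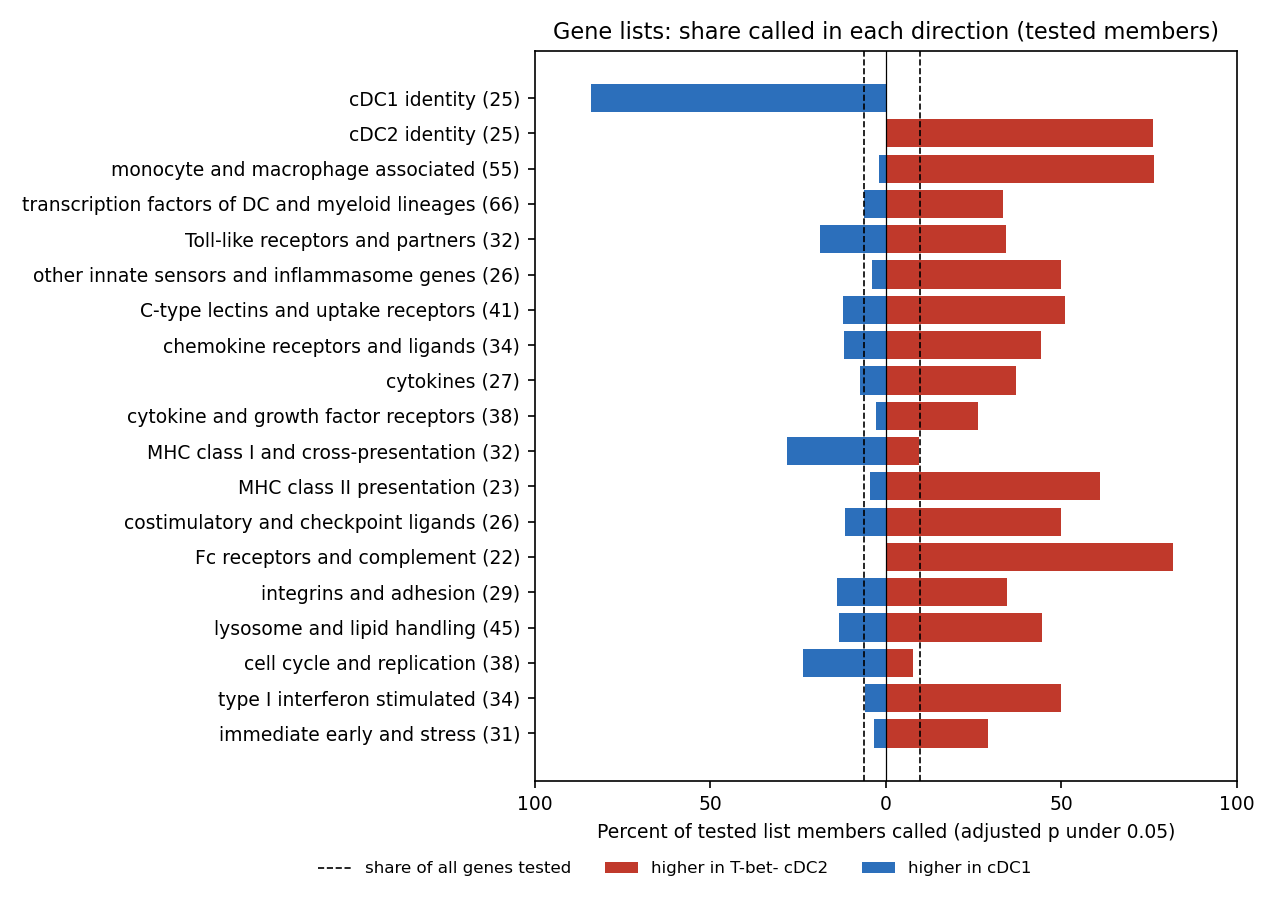
Percent of tested members of each of the 19 gene lists with at least 20 tested members called as higher in T-bet- cDC2s (red, to the right) or in cDC1s (blue, to the left) in the spleen, with the number of tested members in brackets. Dashed lines mark the shares over all genes tested, 9.65% and 6.20%; the blue bars of cDC1 identity, of MHC class I and of the cell cycle lists are longer than their red bars, and the other lists lean to the right.

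Of 25 genes of cDC2 identity, 19 were higher in T-bet- cDC2s, the gate gene Itgam included, and none in cDC1s (median 4.33), or 1 in cDC1s without cDC1 library 1. Apart from the Clec4a lectins, Cd209a, a DC-SIGN homologue, had 27110.0, 25099.9 and 25199 in T-bet- cDC2s and 92.4, 99.8 and 237 in cDC1s (7.50 ± 0.43, adjusted p = 5.32e-06), and Clec10a, a galactose-type lectin, 1987, 2402 and 1809 (7.72 ± 0.65 against cDC1s). Sirpa, the receptor for the "do not eat me" protein CD47, had 15045, 17726 and 39784 against 199, 198 and 102 (7.18 ± 0.50, adjusted p = 1.39e-05). Cd4 (4.32 ± 0.24) and Esam (1.35 ± 0.24), surface markers of the splenic cDC2 that depends on Notch, were higher in T-bet- cDC2s than in cDC1s. By surface protein, the study placed splenic Esam+ cDC2s largely in the T-bet+ subset. The Notch genes themselves were not called, with Notch2 at -0.18 ± 0.37 and Rbpj at -0.72 ± 0.27. Dtx1, a Notch target, was called (4.33 ± 0.34, adjusted p = 3.32e-05) at 145, 195 and 205 against 4.77, 8.72 and 13.7, and T-bet+ cDC2s held 7132, 7423 and 7896.

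Of 55 monocyte- and macrophage-associated genes, 42 were higher in T-bet- cDC2s and 1, Treml4, in cDC1s (median 3.40), or 2 in cDC1s without T-bet- library 3. Lyz2, the macrophage lysozyme, had 250233, 207621 and 159509 in T-bet- cDC2s and 31681, 19730.4 and 18832 in cDC1s (3.14 ± 0.28, adjusted p = 5.88e-05). S100a4, a calcium-binding protein, had 5378, 8077 and 3727 against 34.3, 18.4 and 37.8 (7.57 ± 0.45). Cybb, the catalytic subunit of the phagocyte NADPH oxidase, had 35330.3, 18022 and 24334 against 112, 200.5 and 390.1 (6.79 ± 0.52, adjusted p = 2.85e-05), whereas its partners Ncf1 (-0.27 ± 0.33) and Ncf4 (-0.23 ± 0.21) were not called. Adgre4 (6.81 ± 0.44) and Adgre1 (5.52 ± 0.32), of the F4/80 family, were higher in T-bet- cDC2s. Treml4, a receptor for dead cells, had 9935, 8132 and 10680.2 in cDC1s against 5398, 4975 and 4359 (-0.96 ± 0.18, adjusted p = 0.00574). Clec12a, an inhibitory receptor for uric acid crystals, had 5721, 4849 and 4539 in T-bet- cDC2s and 5128, 4567 and 5818 in cDC1s, overlapping groups with a log2 fold change of -0.04 ± 0.23, and 237, 156 and 143 in T-bet+ cDC2s.

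Markers of other spleen cells were summed in each library to see what moved with the groups. The 10 red pulp macrophage genes summed to 24792 to 34656 in T-bet- cDC2s and 4931 to 7207 in cDC1s, and 6 of 10 were higher in T-bet- cDC2s, with none at the floor. Spic, the factor of red pulp macrophages, had 2902, 2742 and 1841 against 368, 279.9 and 440.4 (2.78 ± 0.27), and Vcam1 was not called (0.37 ± 0.37). The 9 listed Ly6C monocyte genes summed to 4444 to 10165 against 2119 to 4792, with 5 of 8 tested higher in T-bet- cDC2s, and the 10 neutrophil genes to 1855 to 2894 against 725 to 994, with 6 of 9 higher. Only 3 Ly6C monocyte genes were higher without T-bet- library 1, cDC1 library 1 or cDC1 library 2, and 3 neutrophil genes without cDC1 library 2. The sort excluded CD64 and Ly6C. The part of such cells in the genes of the monocyte and macrophage list was not tested. The B cell list summed to similar levels in both groups (13780 to 16142 and 13491 to 16017), most of it Ighm, with 3 of 7 higher in T-bet- cDC2s (Cd79b, Blk and Fcer2a) and 2 higher in cDC1s (Ms4a1 and Ighd). Of the T cell genes 1 of 5 tested was called (Lck), of NK cell genes 0 of 2 and of erythroid and platelet genes 0 of 8 by edgeR, with 0 and 1 (Pf4) at an unadjusted p under 0.05. Plasmacytoid precursor genes were called in both directions (3 higher in T-bet- cDC2s and 2 in cDC1s of 8), as were mature migratory DC genes (1 and 2 of 9) and genes of T-bet+ cDC2s (4 and 1 of 8). The sums of these lists were all higher in T-bet- cDC2s, at 6209 to 7265 against 2858 to 3567 for plasmacytoid precursors. Mature DC genes summed to 108538 to 123651 against 42270 to 67479, and those of T-bet+ cDC2s to 20923 to 34313 against 9860 to 17433. A sum follows its most abundant members, and the median log2 fold change of the 9 tested mature DC genes was -0.09. NK cell genes summed to 57.2 to 74.9 against 14.3 to 45.8, while T cell sums and erythroid and platelet sums overlapped. Single libraries moved some of the small counts of called genes. The mature DC genes higher in cDC1s were 0 without T-bet- library 2 and 1 without T-bet- library 1, and those higher in T-bet- cDC2s were 2 without cDC1 library 3. Genes of T-bet+ cDC2s higher in cDC1s were 0 without T-bet- library 2 or cDC1 library 2 and 2 without cDC1 library 1, and B cell genes higher in cDC1s were 1 without T-bet- library 1 or cDC1 library 3.

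Of 66 tested transcription factors of dendritic and myeloid lineages, 22 were higher in T-bet- cDC2s and 4 in cDC1s (median 0.76). The shares were 33.3% and 6.06%, against 9.65% and 6.20% of all genes. The 4 were Irf8, Mycl, Id2 and Irf5, and this count was 2 without T-bet- library 1 and 7 without T-bet- library 3 or cDC1 library 3. Irf5 was not called without T-bet- library 1, with a replicate block or with no filter on low counts (adjusted p up to 0.078). Irf8, the cDC1 lineage factor, had 94829, 90914 and 63859 in cDC1s and 3604, 6028 and 10538 in T-bet- cDC2s (-3.63 ± 0.39, adjusted p = 0.000215), so that no T-bet- library was without it. Mycl (-2.37 ± 0.64, adjusted p = 0.0342), a MYC relative of cDC1s, lost its call in 6 of 14 alternatives. Irf4 had 3649, 2199 and 2364 in T-bet- cDC2s and 128, 327 and 343 in cDC1s (3.36 ± 0.42, adjusted p = 0.000557). Zeb2, a zinc finger repressor of the cDC2 and monocyte path, had 7816, 2644 and 4683 against 12.4, 14.5 and 90.4 (7.03 ± 0.86, adjusted p = 0.000484), and Id3, an inhibitor of E proteins, 1696, 2475 and 1485 against 59.1, 30.0 and 44.6 (5.40 ± 0.38). Ikzf3 and Tfec were higher too, with fewer than 10 normalised counts in each cDC1 library. Tfec lost its call in 4 of 13 alternatives, without T-bet- library 1, cDC1 library 1 or cDC1 library 2 among them (adjusted p up to 0.089). Nr1h3, the oxysterol receptor LXRα, had 2001, 1497 and 1314 against 55.3, 42.6 and 133 (4.39 ± 0.46, adjusted p = 0.000186). The lineage factor Spi1 was not called (-0.48 ± 0.76), its values following library class (2799.9, 6133 and 25513 and 25093, 18611 and 4395).

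Among 32 Toll-like receptors and partners, 11 were higher in T-bet- cDC2s and 6 in cDC1s (median 0.31). The receptors divided between the subsets. Tlr3, Tlr11 (-2.67 ± 0.39) and Tlr12 (-2.95 ± 0.64), the last pair being receptors for profilin of protozoa, were higher in cDC1s, along with the LPS modulator Cd180, the chaperone Hsp90b1 and Irf5. Without T-bet- library 2 these 6 were 3, with Tlr12, Cd180 and Hsp90b1 not called (adjusted p = 0.054 for Tlr12), Hsp90b1 was not called without cDC1 library 2 either (adjusted p = 0.061), and with at least 10 counts required in every library the 11 were 6. Tlr7, a receptor for single-stranded RNA, had 2539.9, 1437 and 1723 in T-bet- cDC2s and 0, 5.81 and 13.7 in cDC1s (8.21 ± 0.86, adjusted p = 0.000179), and its relative Tlr8 had 673, 317 and 663 against 8.58, 0 and 0. Tlr5, which senses flagellin, had 905, 714 and 615 against 6.67, 0 and 12.6 (6.87 ± 0.75). The lipopeptide receptors Tlr1 (4.22 ± 0.32) and Tlr2 (2.55 ± 0.31) were higher in T-bet- cDC2s, and Tlr6 was not called (1.41 ± 0.43, adjusted p = 0.0521). Tlr9, for CpG DNA, was low in both groups (76.1, 147 and 80.0 and 46.7, 13.6 and 28.6, adjusted p = 0.068), and Tlr4, Tlr13, the adaptor Myd88 and the trafficking protein Unc93b1 were not called.

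Of 26 other tested innate sensors and inflammasome genes, 13 were higher in T-bet- cDC2s and 1, the DNA-binding Ifi205, in cDC1s (7211, 8515 and 9386 against 483, 342 and 309, -4.47 ± 0.26). Ddx58, which encodes the RNA sensor RIG-I, had 2281, 1278 and 1885 in T-bet- cDC2s and 44.8, 68.8 and 135 in cDC1s (4.46 ± 0.46, adjusted p = 0.000163). Nlrc4 (3.15 ± 0.29), the inflammasome core for flagellin and secretion proteins, Casp1 (1.85 ± 0.27), which cleaves pro-IL-1β, and Tmem173 (1.91 ± 0.19), which encodes STING, were also higher. Il1b itself had 195026, 212058 and 117746 against 49219, 48465 and 35939 (1.97 ± 0.23, adjusted p = 0.000405), abundant in all 6 libraries. Nlrp3, a sensor of cell stress, was called (1.9 ± 0.42, adjusted p = 0.0137) but not when only the 6 libraries compared entered the fit or with a replicate block (adjusted p up to 0.054), and Aim2 and Pycard were not called.

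C-type lectins and other uptake receptors gave 21 of 41 higher in T-bet- cDC2s and 5 in cDC1s (median 3.69). The 5 were Clec4b2 (886, 747 and 1128 in cDC1s and 18.2, 6.08 and 2.67 in T-bet- cDC2s), Clec9a, Ly75, which encodes DEC-205, the scavenger receptor Cd36, and Timd4, a phosphatidylserine receptor, which lost its call in 4 of 14 alternatives, without T-bet- library 2, cDC1 library 1 or cDC1 library 2 among them (adjusted p up to 0.086). Lectins of the same cluster thus lay in both directions, as Clec4b1 had 1229.6, 1378 and 691 in T-bet- cDC2s and 6.67, 6.78 and 10.3 in cDC1s (7.11 ± 0.40, adjusted p = 5.04e-06). Clec7a, which encodes the β-glucan receptor dectin-1, had 84359, 46974 and 35450.2 against 1881, 2088 and 1668 (4.89 ± 0.41, adjusted p = 4.68e-05). The list also held Cd209b, with 1282, 1282 and 1181 against 15.2, 8.72 and 8.01 (6.85 ± 0.38), and with at least 10 counts in every library required, 7 members were higher in T-bet- cDC2s and 3 in cDC1s, of 19 then tested.

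Among 34 chemokine receptors and ligands, 15 were higher in T-bet- cDC2s and 4 in cDC1s (median 1.41). The 4 were Xcr1, Cxcr3, Cxcl9 and Ccr9. Cxcr3, the receptor for interferon-induced chemokines, had 1941, 1639 and 2147 in cDC1s and 52.2, 55.9 and 63.1 in T-bet- cDC2s (-5.06 ± 0.34, adjusted p = 1.19e-05), and one of its ligands, Cxcl9, 8468, 7831 and 10499.5 against 1375, 1143 and 1243 (-2.83 ± 0.26). Ccl9, a macrophage chemokine, had 10681, 10411 and 8205 in T-bet- cDC2s and 69.6, 41.6 and 65.2 in cDC1s (7.37 ± 0.31, adjusted p = 3.22e-06). Ccr1 (4.56 ± 0.48), Ccr6 (4.18 ± 0.52) and Ccrl2 (3.05 ± 0.26) were higher in T-bet- cDC2s, as was Gpr183 (2.28 ± 0.24), the oxysterol receptor that places cDC2s in the bridging channel. Ccr7, the receptor for homing to T cell zones, had 114202, 106356 and 81828 against 45252, 29410.2 and 52755 (1.25 ± 0.22, adjusted p = 0.00466).

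Of 27 tested cytokines, 10 were higher in T-bet- cDC2s and 2 in cDC1s (median 1.37), or 37.0% and 7.41% against 9.65% and 6.20% of all genes. The 2 were Il12b, the p40 chain of IL-12 and IL-23, with 9806, 9037 and 11404 in cDC1s and 3669.6, 2323 and 2433 in T-bet- cDC2s (-1.84 ± 0.24, adjusted p = 0.000669), and Il15 (-1.23 ± 0.27), a survival factor of NK and memory T cells. Il1rn, the IL-1 receptor antagonist, had 10221, 7698 and 5951 against 63.9, 56.2 and 106 (6.72 ± 0.37, adjusted p = 4.99e-06). Vegfa (5.43 ± 0.71), Osm (4.41 ± 0.34), Ltb (3.14 ± 0.75, adjusted p = 0.019) and Tnfsf9 (2.56 ± 0.28) were higher in T-bet- cDC2s, with Ltb spread widely over its libraries (963, 2849 and 9802) and not called without cDC1 library 2 or 3 or with a replicate block (adjusted p up to 0.087). Tnf (0.69 ± 0.29) and Il6 (0.47 ± 0.34) were not called. Among 38 cytokine and growth factor receptors, 10 were higher in T-bet- cDC2s and 1, Il22ra2, in cDC1s. That is 26.3% and 2.63% of the list, the latter under the 6.20% of all genes. The 10 became 16 with library class as a term, and the 1 became 3 without T-bet- library 3 and 0 without T-bet- library 1 or 2 or cDC1 library 2 or 3. After Csf1r, the largest were Csf3r, for G-CSF (5.03 ± 0.35), the decoy Il1r2 (4.05 ± 0.52) and the common γ chain Il2rg (3.62 ± 0.28, adjusted p = 2.68e-05).

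The antigen presentation lists leaned to opposite sides. Of 32 genes of MHC class I and cross-presentation, 9 were higher in cDC1s and 3 in T-bet- cDC2s (median -0.52). These were 28.1% and 9.38% of the list, against 6.20% and 9.65% of all genes. Tap1 had 22897, 20011 and 20328 in cDC1s and 5038, 6072 and 11379.6 in T-bet- cDC2s (-1.49 ± 0.29, adjusted p = 0.00713), and Tap2 14676, 13345 and 17104 against 6494, 6686 and 6840.2 (-1.17 ± 0.16, adjusted p = 0.00102), both being subunits of the peptide transporter. Wdfy4, required for cross-presentation of cell-bound antigen (-2.56 ± 0.55, adjusted p = 0.0114), Rab39 (-2.22 ± 0.49) and Psmb9 (-1.21 ± 0.21) of the immunoproteasome were also higher in cDC1s. The 3 higher in T-bet- cDC2s were Cybb, B2m (0.91 ± 0.18, adjusted p = 0.00764), the light chain of all class I molecules, and the GTPase Rac2 (0.89 ± 0.21), which was not called without T-bet- library 2 or cDC1 library 2 (adjusted p up to 0.074). Without T-bet- library 3 the 3 became 5, and with a replicate block Wdfy4 was not called (adjusted p = 0.056). The heavy chains H2-K1 (0.23 ± 0.23) and H2-D1 (-0.15 ± 0.32) were not called.

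Of 23 genes of MHC class II presentation, 14 were higher in T-bet- cDC2s and 1, the tetraspanin Cd9, in cDC1s (median 0.74). The 14 fell to 8 without T-bet- library 2 or cDC1 library 2, to 9 without cDC1 library 1 or with only the 6 libraries compared, and to 8 with a replicate block, and the 1 became 2 without T-bet- library 3. The largest differences were in cathepsins and in minor chains. Ctsd had 5326, 5239 and 3719.7 in T-bet- cDC2s and 751, 542 and 755 in cDC1s (2.80 ± 0.24, adjusted p = 5.64e-05), and Lgmn, an endosomal asparagine protease, 14798, 15515 and 6958 against 1452, 1846 and 2693 (2.64 ± 0.34). H2-Eb2 (2.72 ± 0.43) and H2-DMb2 (2.38 ± 0.17) rose, while H2-DMb1 (-0.03 ± 0.18) was not called. The main chains differed by less, with H2-Aa at 0.74 ± 0.19 (adjusted p = 0.0304), H2-Eb1 at 0.74 ± 0.21 (adjusted p = 0.0399), Cd74 at 0.73 ± 0.20 (adjusted p = 0.039) and H2-Ab1, not called, at 0.06 ± 0.24. Ciita, the class II transactivator, was not called (-0.08 ± 0.25).

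Costimulatory and checkpoint genes gave 13 of 26 higher in T-bet- cDC2s and 3 in cDC1s (median 0.73). The 3 were Btla (-3.43 ± 0.39), Cd86 and Cd200 (-1.16 ± 0.25), the last not called without T-bet- library 2 (adjusted p = 0.057). Cd86, the ligand of CD28, had 13482, 15586 and 18584 in cDC1s and 6068, 3679 and 3517 in T-bet- cDC2s (-1.85 ± 0.26, adjusted p = 0.00113), whereas Cd80 (0.59 ± 0.28) and Cd40 (0.51 ± 0.22) were not called. Cd274, which encodes PD-L1, had 10667, 5810.4 and 7295 in T-bet- cDC2s and 1484, 2059 and 2365 in cDC1s (2.01 ± 0.27, adjusted p = 0.000956), and Pdcd1lg2, which encodes PD-L2, 932, 969 and 777 against 47.7, 29.1 and 75.5 (4.14 ± 0.36, adjusted p = 5.88e-05). The sialic acid receptors Siglece (6.55 ± 0.48) and Siglecg (2.71 ± 0.20) were also higher in T-bet- cDC2s.

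Of 22 Fc receptor and complement genes tested, 18 were higher in T-bet- cDC2s and none in cDC1s (median 4.45), with the gate genes Itgam and Fcgr1 among the 18, and 4 further members of the list were not tested. With at least 10 counts required in every library the 18 were 11, and without cDC1 library 1 a single member was higher in cDC1s. The C1q chains moved together, with C1qa at 4848, 4768 and 3204 against 154, 127 and 172 (4.82 ± 0.32, adjusted p = 1.06e-05), C1qb at 4.80 ± 0.29 and C1qc at 4.31 ± 0.34. C3, the central complement component, had 5118, 2121 and 2275 against 50.5, 79.4 and 57.2 (5.66 ± 0.49, adjusted p = 5.63e-05). Fcer1g, the signalling chain shared by Fc receptors, had 22802, 28294 and 16299 against 413, 340.0 and 487 (5.76 ± 0.29, adjusted p = 3.86e-06), and Fcgr3 5.08 ± 0.35. C1qa and Fcgr1 are also in the red pulp macrophage list, and the part of such cells in them was not tested. Of 29 integrins and adhesion molecules, 10 were higher in T-bet- cDC2s and 4 in cDC1s (median 0.15), or 6 and 1 with at least 10 counts required in every library. Next to Itgae, Cadm1, the cell adhesion molecule that marks cDC1s across tissues (-4.92 ± 0.70, adjusted p = 0.00123), Itga1, the collagen-binding α1 chain (-3.53 ± 0.46), and Cdh17 (-3.71 ± 0.84), not called without T-bet- library 2 or cDC1 library 2 or with only the 6 libraries compared (adjusted p up to 0.071), were higher in cDC1s, and Itgb3 (5.66 ± 0.52) and Cd93 (6.81 ± 0.86) in T-bet- cDC2s.

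The lysosome and lipid list held 20 of 45 genes higher in T-bet- cDC2s and 6 in cDC1s (median 0.82). Ppt1, a palmitoyl-protein thioesterase of lysosomes, had 145522, 159754 and 193152 in cDC1s and 11512, 7703 and 9428 in T-bet- cDC2s (-4.12 ± 0.20, adjusted p = 3.68e-06), and Naaa, an acid amidase of lipids, 66225, 73578 and 67535 against 2105, 2345 and 3683 (-4.67 ± 0.26, adjusted p = 5.23e-06). The fatty acid synthase Fasn (-1.69 ± 0.37) and the desaturase Scd1 (-1.92 ± 0.43) were higher in cDC1s, Scd1 not without cDC1 library 2 (adjusted p = 0.057). Ctsa, the protective cathepsin, had 31444, 30649 and 25116 in T-bet- cDC2s and 4092, 3386 and 4372 in cDC1s (2.88 ± 0.18, adjusted p = 7.47e-06), and Acp5, an acid phosphatase, 3.43 ± 0.22. The lipid carriers Fabp5 (4.84 ± 0.38) and Fabp4 (5.87 ± 0.89), the lipoprotein lipase Lpl (5.22 ± 0.78) and the cholesterol exporter Abca1 (3.82 ± 0.97, adjusted p = 0.0257), a target of Nr1h3, were higher in T-bet- cDC2s. Abca1 lost its call without T-bet- library 1 or any one of the cDC1 libraries (adjusted p up to 0.1).

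Of 38 cell cycle and replication genes, 9 were higher in cDC1s and 3 in T-bet- cDC2s (median -0.58). These were 23.7% and 7.89% of the list, against 6.20% and 9.65% of all genes. The 9 fell to 5 without T-bet- library 2, cDC1 library 1 or cDC1 library 2, or with only the 6 libraries compared. Among the 9 were the cyclin Ccnb2 (1517, 1345 and 715 in cDC1s and 225, 259 and 171 in T-bet- cDC2s, -2.45 ± 0.33, adjusted p = 0.000956), Cdc20 (-3.13 ± 0.49), an activator of the anaphase-promoting complex, the mitotic kinase Plk1 (-1.62 ± 0.26) and Rrm2 (-1.65 ± 0.33), a subunit of ribonucleotide reductase, and none of the 6 Mcm genes was called. The 3 were the cyclin Ccnd2 (1.96 ± 0.28), the inhibitor Cdkn1a, with 12530.3, 15167 and 6421 against 1867, 1230.1 and 1837 (2.79 ± 0.35, adjusted p = 0.000608), and Ccnd1 (0.78 ± 0.23, adjusted p = 0.0492), which lost its call in 11 of 14 alternatives. Mki67, the proliferation marker, was not called (-0.40 ± 0.54). T-bet+ cDC2s held 1655, 2009.9 and 1339 of Ccnb2.

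Of 34 genes stimulated by type I interferon, 17 were higher in T-bet- cDC2s and 2, Mx1 (-1.85 ± 0.36, adjusted p = 0.00721) and Ly6e (-0.73 ± 0.20), in cDC1s (median 1.35), Ly6e losing its call in 6 of 14 alternatives, without T-bet- library 1, cDC1 library 1 or cDC1 library 3 among them (adjusted p up to 0.093). Oas1a, an activator of RNase L, had 1729, 2213 and 1352 in T-bet- cDC2s and 49.6, 30.0 and 56.1 in cDC1s (5.29 ± 0.33, adjusted p = 8.35e-06). Rtp4 (6.25 ± 0.35), Oas2 (6.69 ± 0.96), Oasl2 (4.02 ± 0.25) and Ifi27l2a (4.60 ± 0.35) were among the largest. Of the factors known to drive such genes, Stat2, Irf7 and Irf9 were not called, with Stat2 at -0.19 ± 0.37, Irf7 at 0.18 ± 0.20 and Irf9 at 0.36 ± 0.19. The share higher in T-bet- cDC2s was 50.0% of the list against 9.65% of all genes, and that higher in cDC1s 5.88% against 6.20%. Oas and Ifit genes have near copies, between which reads may be split.

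Of 31 immediate early and stress genes, 9 were higher in T-bet- cDC2s and 1, Egr3, in cDC1s (median 0.65), or 14 and 2 with no filter on low counts. The 9 and the 1 were 29.0% and 3.23% of the list, against 9.65% and 6.20% of all genes. Without T-bet- library 3 or cDC1 library 3, 2 were higher in cDC1s. Egr3 had 1198, 1552 and 1138 in cDC1s and 349.7, 434 and 220.5 in T-bet- cDC2s (-1.95 ± 0.28, adjusted p = 0.00134), and Zfp36, which destabilises cytokine mRNAs, 89465, 70979 and 83509.6 in T-bet- cDC2s against 34584, 37881 and 39159.6 (1.13 ± 0.15, adjusted p = 0.000687). Ddit4 (4.03 ± 0.36), Cd69 (2.97 ± 0.32) and Fosl2 (2.25 ± 0.34) were also higher. Jun, Junb, Dusp1 and Hspa1a followed library class, as in Jun with 1132, 3463 and 30622 in T-bet- cDC2s and 11989, 12007 and 1504 in cDC1s (0.47 ± 1.04, adjusted p = 0.811), and their groups overlapped. Tmem176b, a cation channel of dendritic cells, had 55160.1, 65533 and 47186 against 1684, 1075 and 2417 (5.02 ± 0.34, adjusted p = 1.19e-05), and its relative Tmem176a was also higher in T-bet- cDC2s (4.61 ± 0.36).

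The same subsets were compared in the mesenteric lymph node (MLN), from 2 libraries of T-bet- cDC2s and 3 of cDC1s. There, 664 of 15298 genes were higher in T-bet- cDC2s (4.34%) and 221 in cDC1s (1.44%). Of the 2279 genes called in the spleen, 2221 were tested in the MLN, and 2128 of them (95.8%) had the same direction there. Of the 2221, 676 were called in the MLN in the same direction and 2 in the opposite one. Csf1r had a log2 fold change of 6.86 ± 0.56, Cx3cr1 6.50 ± 0.42, Xcr1 -6.61 ± 1.00 and Tlr3 -4.92 ± 0.82 in the MLN, all called there. Without MLN T-bet- library 1, 165 genes were higher in T-bet- cDC2s and 12 in cDC1s there, without T-bet- library 2 203 and 27, without cDC1 library 2 412 and 137, and without cDC1 library 3 340 and 70, while cDC1 library 1 moved neither count by 1.5 times. With the number in the library names as a block, 1416 and 1061 genes were called in the MLN.

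A test of whether the difference between subsets itself differed between the tissues, in one fit of 16 libraries, called 6 of 16795 genes (0.0357%), with 991 at an unadjusted p under 0.05. Without MLN T-bet- library 1 it called 1 gene, without spleen cDC1 library 1 it called 3, and without MLN cDC1 library 1 it called 28. Cd209b, Pdcd1lg2 and Tppp3 had log2 fold changes that were more positive in the spleen, and Cd1d1, Adgrl3 and Gpr4 had ones more positive in the MLN. Cd1d1, which presents lipids to NKT cells, was lower in T-bet- cDC2s in the spleen, with 1854, 1684 and 1417 against 6079, 5579.9 and 7678 in cDC1s (-1.96 ± 0.21), and higher in the MLN, with 34450.1 and 19331 against 3664, 4997 and 4990.4 (2.56 ± 0.60). The libraries of the 2 groups did not overlap in either tissue. Pdcd1lg2 had 2148 and 1203 in T-bet- cDC2s and 1351, 4254 and 3513 in cDC1s of the MLN, where the groups overlapped, beside the groups without overlap in the spleen. Levels of the 2 tissues were scaled apart and are not compared with each other.

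**Figure D5:**
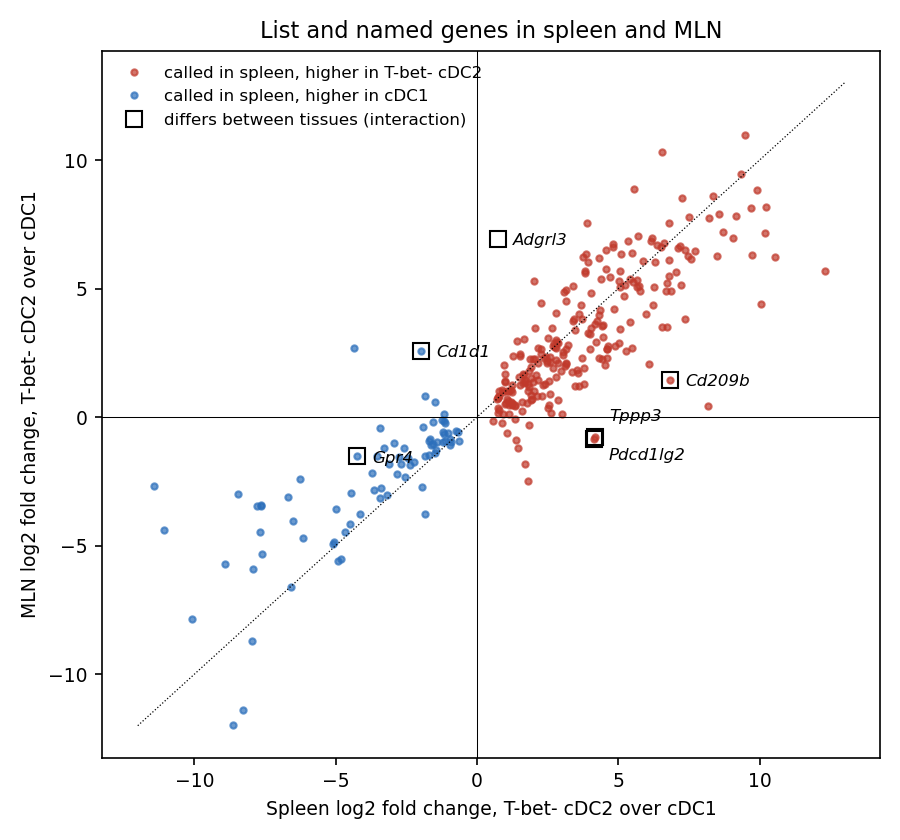
Log2 fold change, T-bet- cDC2 over cDC1, in the spleen (horizontal) and the MLN (vertical) for list members and other named genes called in the spleen, red where higher in T-bet- cDC2s and blue where higher in cDC1s. The dotted line marks equal values and squares mark the 6 genes whose difference between tissues was called, of which Adgrl3 was not called in the spleen and has no point; most points lie in the lower left and upper right quadrants, while Cd1d1, Pdcd1lg2 and Tppp3 lie outside them.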

How the data were processed

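RNA-seq libraries came from sorted cells pooled from a pair of mice each, made with a SMART-Seq v4 kit and read as paired ends on either of 2 sequencer models, not given per library. One sentence of the methods names RFP+ and RFP- the other way round from the labels, and the labels were used. Per the methods, the authors used HISAT2 2.1.0 with the mm10 genome and Rsubread with GENCODE genes, on uniquely aligned reads, and the deposited RNA values are whole-number counts with no normalisation; whether strand was used is not given in the sources used here, so antisense partners cannot be told apart. ATAC-seq reads were aligned with Bowtie2 2.2.5 and peaks called with MACS2 2.1.1.20160309, and the deposited values are counts per summit window with other columns for positions.

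Libraries were grouped by label. edgeR 4.0.16 (TMM, filterByExpr, quasi-likelihood test, Benjamini-Hochberg) was run in R 4.3.3 on 9 spleen libraries, 7 MLN libraries, all 16 for the difference between tissues, and 6 ATAC libraries, and DESeq2 1.42.0 was an alternative. On simulated counts the fits were tested first. The methods call the libraries of a group biological replicates. No 2 libraries had identical counts. Total counts were 20993220 to 27317480 in the 6 spleen libraries compared. The library class used Spearman's rho between expression and the GC content of the richest 100-base window of each transcript in 7571 spleen genes, with a limit of 0.1. The named genes were markers and gate genes, the 15 largest called differences in each direction with a mean of at least 50 normalised counts and no overlap, up to 6 called members of each list in each direction, genes that differed between tissues, and 7 chosen for their role; other list members are named to account for lists, and some genes are not reported here. Members and lists were chosen with earlier results of these data known.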

Additional observations from a re-analysis of the deposited data

Results flagged for a closer look

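The test of the difference between spleen and MLN called 6 genes, whose effects are log2 differences, T-bet- cDC2 over cDC1, in spleen minus those in MLN (edgeR's quasi-likelihood test with Benjamini-Hochberg adjustment, 3 against 3 spleen and 2 against 3 MLN libraries). Adgrl3, an adhesion receptor known from neurons, differed by -6.11 ± 0.69 (adjusted p = 0.003), with 1322, 859.8 and 993 in T-bet- cDC2s and 424, 568 and 896 in cDC1s of the spleen and 317 and 372 against 4.37, 0 and 3.64 in the MLN. Cd209b, a lectin of marginal zone macrophages, differed by 5.45 ± 0.58 (adjusted p = 0.003), and in the MLN had 98.5 and 109 against 50.3, 26.3 and 37.3. Tppp3, a tubulin-binding protein, differed by 5.01 ± 0.65 (adjusted p = 0.010), with 894, 1149 and 661 against 58.1, 46.5 and 45.8 in the spleen and 144 and 139 against 214, 275 and 240.1 in the MLN. Pdcd1lg2 differed by 5.09 ± 0.68 (adjusted p = 0.012) and Cd1d1 by -4.45 ± 0.62 (adjusted p = 0.015). Gpr4, a proton-sensing receptor, differed by -2.65 ± 0.41 (adjusted p = 0.038), with 333, 235 and 235 in T-bet- cDC2s against 5416, 4719 and 4979 in cDC1s of the spleen and 1101 and 810.1 against 4008, 1722 and 2545 in the MLN.

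Over 15 alternatives, Adgrl3 and Cd209b were called in 14 each, Tppp3 in 12, Pdcd1lg2 in 11, Cd1d1 in 8 and Gpr4 in 5, and none of the 6 changed direction. The groups of 2 or 3 libraries were too small for a search for outlying samples.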

How the results depend on the processing

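Of 180 named genes, 172 were called, 150 of these in each alternative that tested them and none reversed, while 9 lost their call in 1 or 2 alternatives (Cd180, Cd200, Hsp90b1, Irak3, Nlrp3, Rora, Scd1, Tlr12 and Wdfy4) and 13 in 3 or more (Ccnd1, Ccna2, Ly6e, Mycl, Psap, Abca1, Ltb, Nfkbiz, Rac2, Tfec, Timd4, Cdh17 and Irf5). Clec12a, not called, ranged from -0.14 to 0.051 when single libraries were left out, and was above 0 without T-bet- library 3 (0.0040) or cDC1 library 3. Requiring 10 counts in every library left 914 genes higher in T-bet- cDC2s, and an adjusted p under 0.01 left 794 and 405 higher in each subset. Leaving out single libraries gave 929 to 1504 and 535 to 1573. With library class as a term the counts were 1577 and 1167, with 2166 genes shared with those reported.

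The deviations of same-numbered libraries correlated at -0.42, -0.10 and -0.49 in the spleen. In the MLN they correlated at 0.09 and -0.04 by label number and at 0.04 and 0.15 by the number in the library name. Each same-numbered spleen pair joined libraries of opposite class, and the MLN T-bet- libraries deviate as mirror images. These values therefore cannot tell whether replicate numbers pair the libraries. The replicate block gave 1021 and 589 genes in the spleen, 409 and 106 in the MLN, 1 gene for the difference between tissues, and 11885 and 16967 ATAC windows. No cDC1 or T-bet- library of the spleen correlated best with its own number. Blocked by the number in the library name, the MLN gave 1416 and 1061, against 664 and 221.

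In the MLN, DESeq2 called 1086 and 644 genes and no filter on low counts 1329 and 683, and leaving out single libraries gave 165 to 568 and 12 to 182. For the difference between tissues DESeq2 called 114 and no filter 261, and leaving out single libraries 1 to 28. For ATAC, DESeq2 called 7301 and 9841 windows, an adjusted p under 0.05 without a fold limit 19523 and 24306, and scaling by library size alone 9665 and 19333, against 12191 and 17582. The cause was not tested for any of these. Genes under the filter on low counts were not tested at this depth.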
